A study of Homo sapiens with 6 samples.

Results

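Messenger RNA of 9 genes that start, restrain or dissolve blood clots was read on arrays in the established human bladder cancer line T24, with and without oxidized low-density lipoprotein (ox-LDL). The genes are the procoagulant F3, those grouped as anticoagulant (THBD, PROCR, TFPI and TFPI2), and those grouped as fibrinolytic (PLAU, PLAUR, PLAT and SERPINE2). The group names are broad, since SERPINE2 encodes an inhibitor of urokinase and plasmin, and TFPI2 one of plasmin. The 9 genes were taken by gene symbol from 17687 genes with a symbol on the array, and each had 1 probe set. They were chosen by function and with their measured ox-LDL minus vehicle differences already known, so the differences and calls of these 9 genes are a description, and no p-value is given for them. The vehicle group (3 arrays) held T24 cells that were kept for 12 h without serum and then given vehicle for 24 h. The ox-LDL group (3 arrays) held cells handled the same way and given ox-LDL, an oxidized cholesterol-carrying particle, at 20 µg/mL for 24 h. Both groups were thus serum-starved cultures of a single cell line, with no blood, platelets or vessel wall. The labels do not say that the arrays of a group came from separate cultures, so the errors may describe technical spread alone.

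Clotting by the tissue factor route starts when tissue factor, the product of F3, binds factor VII on a cell surface and activates factor X, which leads to thrombin. Thrombomodulin (THBD) captures thrombin and, with the protein C receptor (PROCR), turns it towards activating the anticoagulant protein C, while TFPI blocks tissue factor and factor X. Fibrin is dissolved by plasmin, made from plasminogen by urokinase (PLAU), held at the cell surface by its receptor (PLAUR), and by tissue plasminogen activator (PLAT). Many carcinoma cells make tissue factor and urokinase, which are studied in cancer-linked thrombosis and in tumour invasion.

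Titles, source and treatment fields named vehicle and ox-LDL, whereas a description field spoke of control and G9a siRNA. EHMT2, which encodes G9a, was not lower on the arrays titled OXLDL: its mean log2 value was 8.22 ± 0.14 against 7.85 ± 0.19 (SD, n = 3 each), a difference that did not pass (limma adjusted p = 0.125). The epithelial keratins KRT8 and KRT18 had vehicle means of 12.1 and 11.9. Of 11 measured epithelial and urothelial markers, 8 lay above the 95th percentile of the negative control probe sets (5.21) in either group. So did 16849 of all 21448 tested probe sets, and 4 of 6 hepatocyte, 4 of 7 leukocyte and 4 of 5 platelet and megakaryocyte markers measured. A count above this percentile therefore does not tell the cell type. KRT7, KRT19 and EPCAM also lay above that percentile in the vehicle mean (12.0, 7.67 and 5.48), whereas the epithelial marker CDH1 lay below it (3.96). Of the urothelial differentiation markers, UPK1A, UPK2 and GATA3 lay above it in the vehicle mean (5.98, 6.61 and 7.14), and UPK1B and UPK3A below it (4.44 and 4.57). The third vehicle array stood apart. Over all probe sets it correlated with the rest at 0.979 to 0.988, whereas the other 5 arrays correlated among themselves at 0.992 to 0.997. Against the mean of vehicle replicates 1 and 2 it read TFPI lower by a log2 value of 0.39 and PLAUR higher by 0.21, and it was within 0.10 of that mean for the other 7 genes. Array medians ran from 7.11 to 7.18. Precision rests on 3 arrays in each group. The errors and intervals of the limma fit are moderated, that is, they also draw on the variance of all tested probe sets.

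Promoter sequences are shown for F3, which rose, and for 3 of the genes that fell together. RefSeq (GRCh38.p14) gave promoters for 7 of the 9 genes. THBD and PLAT had no entry in the source used and were not searched. The 250 bases before the start are printed 5′ to 3′ on the gene's strand. The windows are chr1:94541760-94542009 (minus strand) for F3, chr7:93890754-93891003 (minus strand) for TFPI2, chr19:43670170-43670419 (minus strand) for PLAUR, and chr10:73910882-73911131 (plus strand) for the downstream of 2 PLAU starts. Capitals mark AP-1, EGR, NF-kB and TATA matches on either strand.
F3: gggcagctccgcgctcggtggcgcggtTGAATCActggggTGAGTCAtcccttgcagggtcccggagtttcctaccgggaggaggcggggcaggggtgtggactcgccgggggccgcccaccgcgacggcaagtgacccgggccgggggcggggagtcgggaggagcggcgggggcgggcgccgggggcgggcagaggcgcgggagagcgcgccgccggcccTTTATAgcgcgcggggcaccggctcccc
TFPI2: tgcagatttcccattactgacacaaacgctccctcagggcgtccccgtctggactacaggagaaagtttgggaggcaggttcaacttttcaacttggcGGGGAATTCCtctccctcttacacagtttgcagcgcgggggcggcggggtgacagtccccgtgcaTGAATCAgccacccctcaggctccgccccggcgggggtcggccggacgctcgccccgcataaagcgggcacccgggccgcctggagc
PLAUR: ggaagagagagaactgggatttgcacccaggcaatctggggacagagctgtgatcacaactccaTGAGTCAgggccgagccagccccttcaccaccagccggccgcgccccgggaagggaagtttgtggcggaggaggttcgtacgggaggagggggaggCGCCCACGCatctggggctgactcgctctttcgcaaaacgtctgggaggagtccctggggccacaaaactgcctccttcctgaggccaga
PLAU: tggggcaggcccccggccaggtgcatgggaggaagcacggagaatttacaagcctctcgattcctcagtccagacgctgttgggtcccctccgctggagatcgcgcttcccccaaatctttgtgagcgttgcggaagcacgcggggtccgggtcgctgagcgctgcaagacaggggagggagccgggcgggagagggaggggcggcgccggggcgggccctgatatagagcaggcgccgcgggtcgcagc
The letters searched, on both strands, were TGANTCA for AP-1, TGACGTCA for the cAMP response element, TGATGNAA for the ATF4 element and GCGTGGGCG for EGR. Also searched were GGGCGG for the GC box, CATTCC for TEAD, TATAAA for the TATA box and GGGRNNYYCC for NF-kB. N stands for any base, R for A or G, and Y for C or T. F3 held 2 AP-1 matches (223 to 217 and 210 to 204 bases before the start), 4 GC boxes and, on the antisense strand, a TATA match 28 to 23 bases before the start. PLAUR held 1 AP-1 match (186 to 180 bases before) and 1 EGR match (90 to 82), and TFPI2 held 1 AP-1 match (87 to 81), 1 NF-kB match (152 to 143) and 2 GC boxes. The PLAU window shown held 3 GC boxes, which are left in lower case, and PROCR held 2 GC boxes and 1 TATA match. The TFPI window and the other PLAU window held none of the 8 motifs, and the 2 SERPINE2 windows held GC boxes (1 and 2). Of all 35116 promoters in the table, 6.57% held the AP-1 letters, 0.72% EGR, 9.96% NF-kB, 42.6% a GC box, 10.7% TATA, 11.9% TEAD, 3.14% the ATF4 element and 1.65% the cAMP response element. No marked match overlapped another motif. A match describes letters only, and binding was not measured. Sites that depart from the searched letters were not counted, so a window without a match may still hold such a site.

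F3 rose, THBD, TFPI2, PLAU, PLAUR and PLAT fell, and PROCR, TFPI and SERPINE2 did not pass. A call is a Benjamini-Hochberg adjusted p under 0.05 in a limma fit over all 21448 probe sets that are not controls, of which 6.77% passed (3.48% higher and 3.29% lower). Of the 9 genes, 1 was called higher and 5 lower. Since this contrast was known when the genes were chosen, nothing is read from that count. The median log2 difference of the 9 was -0.45, against -0.03 over all probe sets. The arrays of the groups did not overlap for 8 of the 9 genes (2 higher and 6 lower with ox-LDL), as for 36.8% of all probe sets (19.1% higher and 17.7% lower). When any 1 ox-LDL array was left out, F3 was still called higher, and THBD, PLAU and PLAUR lower, so that 3 were lower in place of 5. In those fits 1.44%, 1.42% and 1.56% of all probe sets passed. Without vehicle replicate 3, 6 genes were lower, TFPI being added, and 12.4% of all probe sets passed. In cultured cells measured in bulk, fewer cells with a transcript and less of it per cell cannot be told apart.

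**Figure D1:**
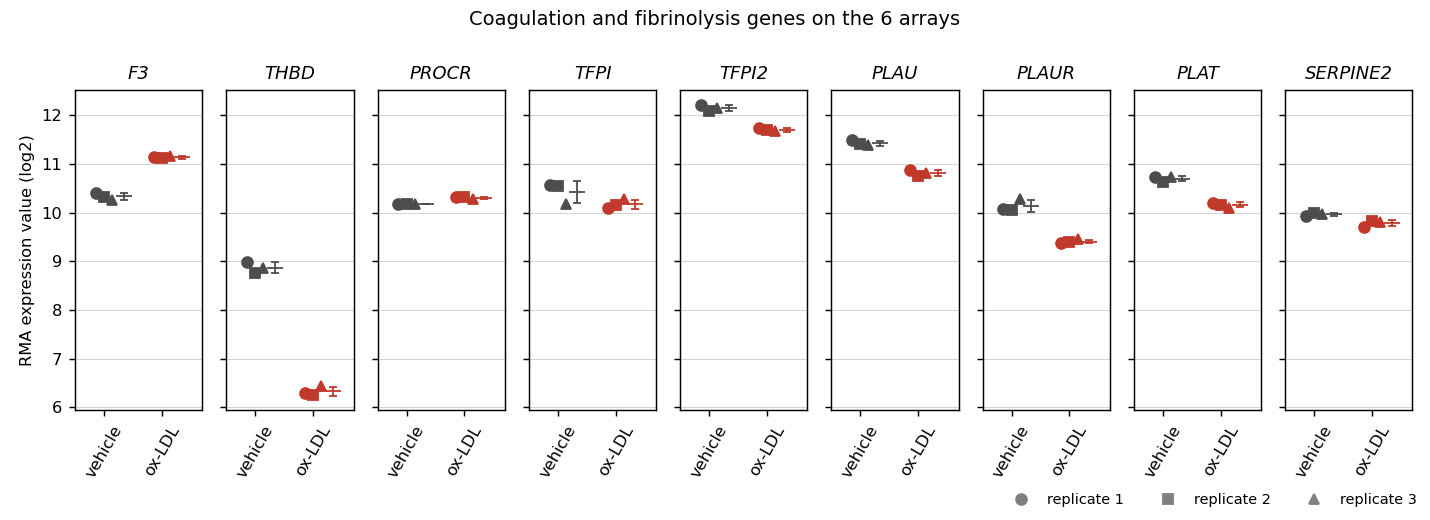
RMA log2 expression values of the 9 genes on the 3 vehicle arrays (grey) and the 3 ox-LDL arrays (red), with symbols for the replicate number of the titles and the mean ± SD beside them. The ox-LDL arrays lie above the vehicle arrays for F3, far below them for THBD (6.33 against 8.86 in the mean), and the groups overlap for TFPI.

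F3, which encodes tissue factor, the cell-surface trigger of clotting, read 10.40, 10.32 and 10.27 (log2 values) with vehicle and 11.14, 11.11 and 11.16 with ox-LDL. Every ox-LDL array was above every vehicle array. The log2 difference was 0.81 (SE 0.07, 95% confidence interval 0.64 to 0.98), a 1.75-fold rise, and 0.751% of all probe sets were at least as far up. It was called in all 16 alternative fits, with values from 0.75 to 0.84.

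THBD, which encodes thrombomodulin, the thrombin receptor that starts the protein C pathway, read 8.98, 8.75 and 8.86 with vehicle and 6.30, 6.26 and 6.43 with ox-LDL. The groups lay far apart, with no ox-LDL array near the vehicle range. THBD was 5.79-fold lower (log2 difference -2.53, SE 0.09, 95% confidence interval -2.75 to -2.32), which ranked as number 3 among the falls of 17709 probe sets with a gene symbol. The ox-LDL mean of 6.33 was still above the negative controls' 95th percentile (5.21). All 16 alternative fits called it, with values from -2.59 to -2.48.

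The genes whose profile over the 6 arrays, centred on the vehicle mean, was nearest to that of THBD were CCL20, CSF3 and LCN2. CCL20 encodes a chemokine, CSF3 the granulocyte colony-stimulating factor and LCN2 an iron-siderophore carrier. Their root mean square distances from THBD were 0.22, 0.24 and 0.26 on the log2 scale, among 17708 probe sets compared, and their log2 differences were -2.38, -2.87 and -2.47. For a fall this large the distance mostly follows the size of the ox-LDL difference. Few genes fell by a similar amount, so those that did come out nearest. A shared cause was not tested.

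PROCR, the receptor that presents protein C to the thrombin and thrombomodulin complex, did not pass. Its values were 10.18, 10.18 and 10.18 with vehicle and 10.33, 10.31 and 10.28 with ox-LDL. The ox-LDL arrays were all slightly higher, by a log2 difference of 0.13 (SE 0.06, 95% confidence interval -0.02 to 0.28).

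Both Kunitz-type inhibitor genes had negative differences. TFPI2, an inhibitor of plasmin and other serine proteases of the matrix, read 12.21, 12.08 and 12.15 with vehicle and 11.74, 11.69 and 11.67 with ox-LDL. The groups did not overlap, and TFPI2 fell by 0.45 on the log2 scale (SE 0.07, 95% confidence interval -0.62 to -0.28). Leaving out vehicle replicate 1, or ox-LDL replicate 1, 2 or 3, ended its call. TFPI, the inhibitor of tissue factor and factor X, read 10.57, 10.54 and 10.17 with vehicle and 10.09, 10.15 and 10.27 with ox-LDL. Its groups overlapped through vehicle replicate 3, and it did not pass, at a log2 difference of -0.26 (SE 0.12, 95% confidence interval -0.55 to 0.04). Without that array the difference was -0.39 and passed.

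**Figure D2:**
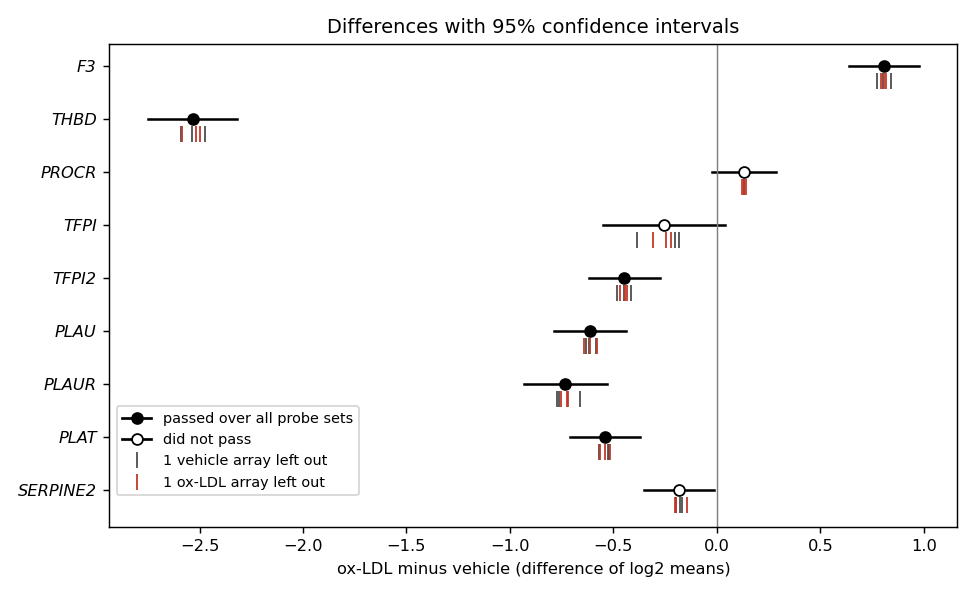
Difference of log2 means, ox-LDL minus vehicle, with 95% confidence intervals from limma, filled where the difference passed over all probe sets. Ticks below each interval are the differences with 1 array left out, which stay on the same side of 0 for all 9 genes and range most for TFPI (-0.39 to -0.18).

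The urokinase system fell together at the ligand and the receptor. PLAU, which encodes urokinase, the activator of cell-bound plasminogen, read 11.48, 11.41 and 11.38 with vehicle and 10.88, 10.75 and 10.81 with ox-LDL, without overlap. It was 1.53-fold lower (log2 difference -0.61, SE 0.07, 95% confidence interval -0.79 to -0.44). PLAUR, its membrane-anchored receptor, read 10.07, 10.06 and 10.28 with vehicle and 9.38, 9.39 and 9.45 with ox-LDL. The vehicle arrays were all higher, replicate 3 the most, and PLAUR was 1.66-fold lower (log2 difference -0.73, SE 0.09, 95% confidence interval -0.93 to -0.53). Both were called in all 16 alternative fits. PLAU ranged from -0.66 to -0.58 and PLAUR from -0.80 to -0.66.

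PLAT, which encodes tissue plasminogen activator, the protease that activates plasminogen mainly on fibrin, read 10.73, 10.64 and 10.72 with vehicle and 10.21, 10.16 and 10.10 with ox-LDL. The groups did not overlap, and PLAT was 1.45-fold lower (log2 difference -0.54, SE 0.07, 95% confidence interval -0.71 to -0.37). Leaving out any 1 ox-LDL array ended the call, with values of -0.57 to -0.51 over all fits with an array left out. SERPINE2, which encodes protease nexin 1, an inhibitor of thrombin, urokinase and plasmin, read 9.93, 9.99 and 9.98 with vehicle and 9.71, 9.83 and 9.81 with ox-LDL. All ox-LDL arrays were lower, but SERPINE2 did not pass, at a log2 difference of -0.18 (SE 0.07, 95% confidence interval -0.35 to -0.01).

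**Figure D3:**
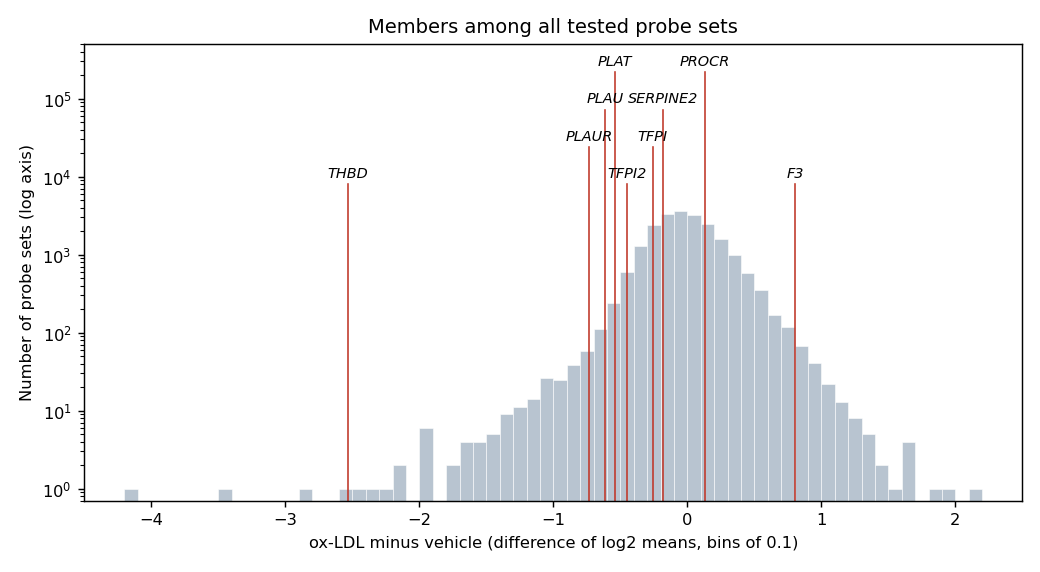
Number of the 21448 tested probe sets (log axis) by their ox-LDL minus vehicle difference in log2 bins of 0.1, with red lines at the 9 genes. THBD lies in the thin lower tail, where 0.0186% of probe sets were at least as far down, and PROCR and SERPINE2 lie in the body of the distribution.

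Within each array, the change of a gene relative to its partner was read as a log2 ratio, which a shift of the whole array leaves as it is. These ratios come from the same contrast and are a description as well. The SE of a ratio rests on the spread of its own arrays alone. It is not moderated, unlike the limma SE of single genes, so the 2 kinds are not to be compared. F3 relative to THBD changed by 3.34 (SE 0.07), with ox-LDL arrays at 3.37, 3.38 and 3.26 above the vehicle mean and vehicle arrays at -0.05, 0.11 and -0.06. F3 relative to TFPI2 changed by 1.25 (SE 0.05) and relative to TFPI by 1.06 (SE 0.11), and in both every ox-LDL array lay above every vehicle array. PROCR relative to THBD changed by 2.67 (SE 0.09), again without overlap.

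Among the fibrinolytic genes the ratios moved less. PLAU relative to PLAUR changed by 0.12 (SE 0.10) and relative to PLAT by -0.07 (SE 0.05), and the groups overlapped in both. Relative to the inhibitor gene SERPINE2, PLAU changed by -0.43 (SE 0.09) and PLAT by -0.36 (SE 0.08), with every ox-LDL array below every vehicle array. TFPI2 relative to TFPI changed by -0.19 (SE 0.15) with overlap, and by -0.06 without vehicle replicate 3.

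**Figure D4:**
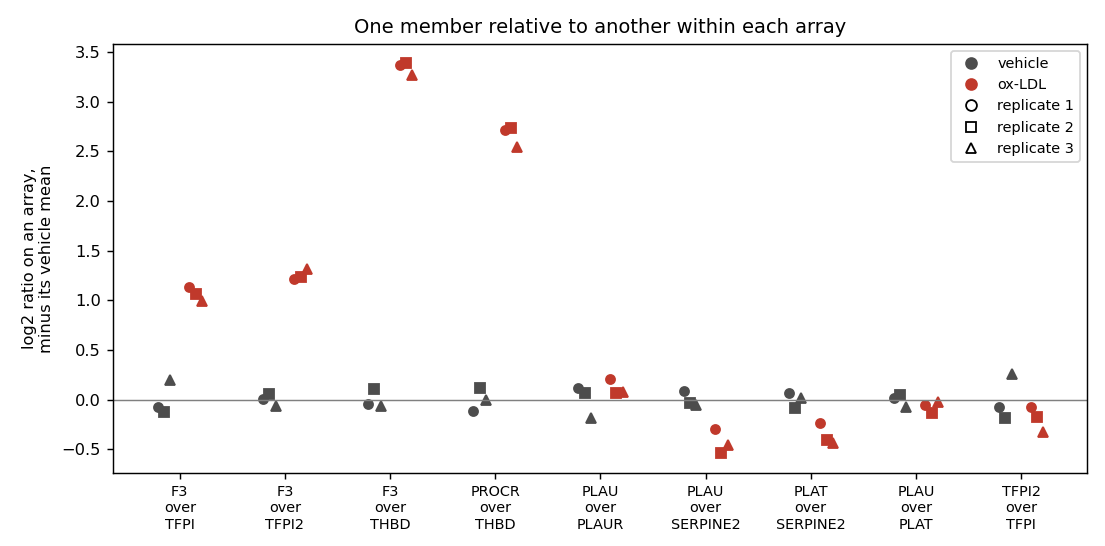
Log2 ratio of a gene over its partner on each array, with the vehicle mean of that ratio set to 0, for vehicle (grey) and ox-LDL (red) arrays. The ox-LDL arrays of F3 over THBD lie between 3.26 and 3.38, while those of PLAU over PLAT mix with the vehicle arrays.

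Other genes of clotting and fibrin dissolution came from a list drawn up by function, with earlier results of these data known. Of 55 genes listed, 52 were measured and 1 passed, F2RL2, which rose. SERPINB2, SERPINB6 and F2RL1 were not analysed here. The median log2 difference of the 52 was -0.06, and 8 had an unadjusted limma p under 0.05, a share to be set beside 26.1% of all probe sets. F2RL2 encodes protease-activated receptor 3, a thrombin receptor that assists receptor 4. It read 4.68, 4.30 and 4.53 with vehicle and 5.31, 5.32 and 5.65 with ox-LDL, without overlap, and its log2 difference was 0.92 (SE 0.14, adjusted p = 0.0125). Its vehicle mean of 4.50 lay below the negative controls' 95th percentile, and the call ended when any 1 ox-LDL array was left out or an unmoderated statistic was used. Of the other thrombin receptors, F2R differed by a log2 value of 0.12 (SE 0.25, limma adjusted p = 0.772), or -0.094 without vehicle replicate 2 and 0.40 without vehicle replicate 3.

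None of the 16 coagulation factors and cofactors passed in limma, where 1 had an unadjusted p under 0.05 (VWF, log2 difference -0.30). None passed with an unmoderated statistic either. That statistic called 5.07% of all probe sets and the limma fit 6.77%, so a count of 0 in a list this short is near the background. Of the 16 genes 7 lay above the negative controls' 95th percentile in either group, against 16849 of all 21448 tested probe sets. F8, which encodes the cofactor factor VIII, is named after its values were seen. With all arrays it did not pass (log2 difference -0.41, limma adjusted p = 0.199). In limma without vehicle replicate 3, where 12.4% of all probe sets passed, it was lower (log2 difference -0.61, adjusted p = 0.0189). For the 6 genes of the vitamin K cycle and factor secretion, none passed in limma and 2 had an unadjusted p under 0.05. One of these, MCFD2, the partner of LMAN1 in the export of clotting factors, passed with the unmoderated statistic (log2 difference -0.20).

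The 5 genes listed under phospholipid exposure and tissue factor encryption had none that passed and none with an unadjusted p under 0.05, by limma. The unmoderated statistic did not call any either. This heading is broad, since PDPN, also listed, belongs to neither. ANO6, the scramblase that exposes phosphatidylserine for clotting complexes, differed by a log2 value of 0.08 (SE 0.08, limma adjusted p = 0.534). None of the 9 genes listed as circulating anticoagulants passed in limma or with the unmoderated statistic. That list is broad and includes GAS6, which is not itself an anticoagulant. By limma 4 had an unadjusted p under 0.05, a share to be set beside 26.1% of all probe sets. Of these, PROS1 and GAS6 were higher (log2 differences 0.96 and 0.22), and SERPINA5 and PROC lower (-0.44 and -0.22). PROS1, which encodes protein S, the cofactor of activated protein C, read 5.78, 5.84 and 4.36 with vehicle and 6.21, 6.23 and 6.43 with ox-LDL. The third vehicle array was far below the rest. The log2 difference was 0.96 (SE 0.38, adjusted p = 0.169), and without that array it was 0.48 and passed (adjusted p = 0.0238).

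Genes that bind plasminogen at the surface showed small differences. None of the 8 plasminogen receptor and uptake genes passed in limma or with the unmoderated statistic, and none had an unadjusted p under 0.05. Of the 8, 7 had a positive difference, up to 0.14, as had 9630 of all 21448 tested probe sets. ANXA2 and S100A10, which together form the annexin A2 complex that binds plasminogen and its activator, had log2 differences of 0.12 (SE 0.07, adjusted p = 0.347) and 0.11 (SE 0.09, adjusted p = 0.425). Of 5 measured genes of plasminogen and its inhibitors, none passed in limma or with the unmoderated statistic and none had an unadjusted p under 0.05. SERPINF2 alone among them lay above the negative controls' 95th percentile, against 16849 of all 21448 tested probe sets.

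**Figure D5:**
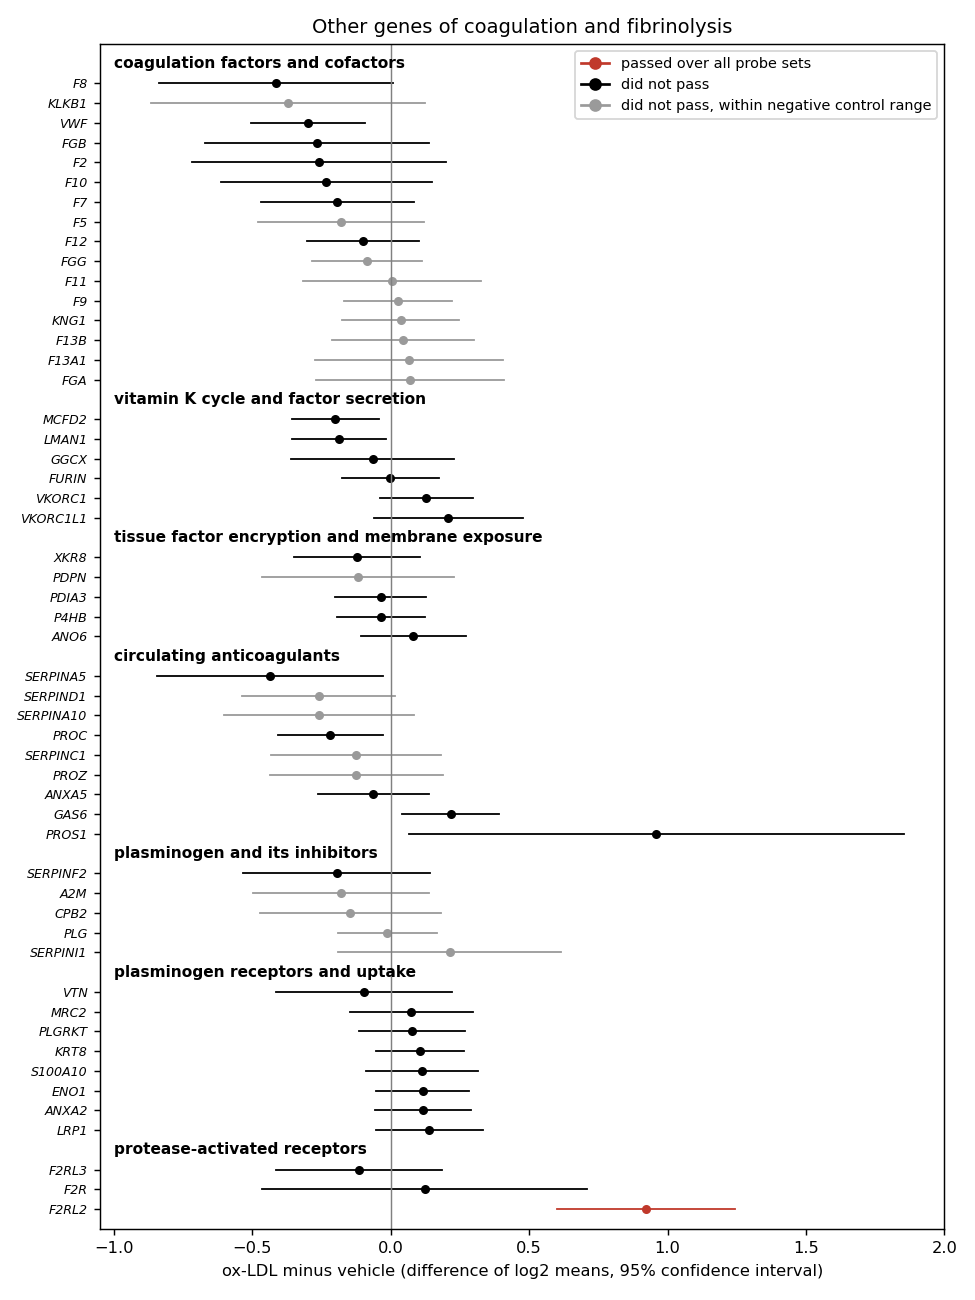
Difference of log2 means, ox-LDL minus vehicle, with 95% confidence intervals, for the 52 other measured genes by role, red where the difference passed over all probe sets and light grey where both groups lay at or below the negative controls' 95th percentile. F2RL2 is the red point at 0.92, and PROS1 has the widest interval (0.06 to 1.85).

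THBD, PROCR and TFPI are best known from endothelium, so 8 endothelial markers were read beside them. Their mean log2 value was 5.88 to 6.29 on the vehicle arrays and 5.88 to 5.92 on the ox-LDL arrays, with the highest on vehicle replicate 3. KDR and TEK lay below the negative controls' 95th percentile in both groups, at vehicle means of 3.88 and 3.82. Of the 8 markers 6 lay above it in either group, as did 16849 of all 21448 tested probe sets. The part of these markers in the results was not tested.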

How the data were processed

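Total RNA of T24 cells (500 ng per sample) was labelled and hybridised to 6 single-colour arrays, 3 per group, per the labels' protocols. The deposited values are log2 expression made by the authors with RMA, per the submitters' processing notes. RMA's version and settings, the annotation and the genome build were not given in the sources used here. RMA equalises arrays, which hides a change of total RNA, and it compresses changes of dim genes.

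The table held 24350 probe sets. After 2902 controls were left out, 21448 were fitted, of which 17709 had exactly 1 gene symbol in the platform annotation, 0 had several and 3739 none. A gene with several probe sets was represented by that with the highest mean. Groups followed the titles. All arrays entered a limma fit (limma 3.58.1, R 4.3.3, lmFit and eBayes) of ox-LDL minus vehicle, two-sided, with Benjamini-Hochberg adjustment over 21448 probe sets. The procedure was tested on simulated data. The design text's selection (p at or below 0.001, fold change of at least 1.5, test not named) was an alternative.

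The 9 genes and all lists were chosen with earlier results of these data known. Named are the 9 genes and EHMT2, of the other pathway genes all that passed and F2R, ANXA2, S100A10, ANO6 and PROS1 whatever their values, and the 3 nearest profiles of any of the 9 genes that differed by at least 1 on the log2 scale. Of further genes, F8 and MCFD2 were picked with their values in view. SERPINB2 and F2RL1, also in that rule, were not analysed here, and 1 other gene of the rule is not reported here.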

Additional observations from a re-analysis of the deposited data

How the results depend on the processing

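Over 16 alternatives (scaling, filter, fit, threshold, block and each array left out) the 9 genes kept their direction, F3, THBD, PLAU and PLAUR kept their call, and SERPINE2 was never called. The number called was 6 of 9, 4 under the design text's selection, where TFPI2 and PLAT dropped out, and 4 to 7 with 1 array left out. TFPI was also called with array weights, and PROCR with an unmoderated statistic alone. PROCR was 0.13, and between 0.07 and 0.16 over the alternatives. The number of other pathway genes called was 1, but 0 among probe sets above the negative controls, where F2RL2 was not tested, 3 with an intensity trend and robust fit (LMAN1 and MCFD2 added), 4 with array weights (F8, VWF and MCFD2 added) and 0 to 3 with 1 array left out. The F2R difference of 0.12 turned to -0.094 without vehicle replicate 2 and was 0.40 without vehicle replicate 3; the cause was not tested. EHMT2 kept its direction and was not called in any alternative (adjusted p = 0.0624 to 0.320).

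Over all probe sets 1451 were called, against 2005 above the negative controls, 2649 with the intensity trend, 3962 with array weights, 1087 with an unmoderated statistic, 496 under the design text's selection, 806 with vehicle replicate 1 left out, 718 with vehicle replicate 2 and 2670 with vehicle replicate 3 left out, and 305 to 335 when an ox-LDL array was left out. Deviations from the group means correlated at -0.01, 0.03 and 0.02 for equal replicate numbers, against -0.04 to 0.04 for unequal ones. With 3 arrays in each group, these values cannot show whether arrays of equal number were handled as pairs. With the replicate number as a block, 550 were called, among them 5 of the 9 genes (all but TFPI2 of those called) and 1 other pathway gene, and EHMT2 had the same difference of 0.37. All 9 genes lay above the negative controls' 95th percentile, as did 16849 of all 21448 tested probe sets.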
